A study of Mus musculus with 9 samples.

Results

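The 7 neuropeptide precursor genes described here were followed in single-cell RNA-seq libraries of the embryonic mouse neocortex: *Sst*, *Npy*, *Tac1*, *Penk*, *Nts*, *Cck* and *Grp*. They were chosen by name as forebrain neuropeptides, and they are 7 of the 17487 genes listed across the libraries. Each was read in every library as UMIs (unique molecular identifiers, 1 per captured RNA molecule) per 10000 UMIs of a cell, averaged over cells, and as the share of cells with at least 1 UMI. The aim was to find the cell class that carried each peptide RNA and how much of it was seen in the other classes of the same library. The 9 libraries came from E18.5 neocortices of wild-type (WT, 5 libraries) and *Tcf4* knockout (KO, 4 libraries) embryos, littermates from breedings of *Tcf4* haploinsufficient mice that carry a lacZ allele at *Tcf4* exon 4. The allele is germline, with no cell-type-specific driver. By the study's account it removes the longest TCF4 isoform while a shorter one is still made. Libraries were named WT1 to WT5 and KO1, KO2, KO4 and KO5. The study's own WT to KO comparison used WT2, WT3 and WT4 against KO4 and KO5, and these 5 are the libraries compared here. Where values are given in a row, they follow that order unless other libraries are named.

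Neuropeptides are cut from larger precursor proteins, packed into dense-core vesicles and released to act on G-protein-coupled receptors of nearby cells. In the forebrain their genes are classic markers of neuron types: somatostatin and neuropeptide Y of GABAergic interneurons, substance P and enkephalin of the striatal projection neurons of the direct and indirect pathways, and cholecystokinin of interneurons and many pyramidal cells. Because a peptide neuron can hold very many copies of 1 precursor RNA, these genes are also among those that show up in droplets of other cells when RNA is free in a cell suspension.

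*Sst* (ENSMUSG00000004366) lies at chr16:23889573-23890958 on the minus strand of GRCm38 (GENCODE vM21), *Npy* (ENSMUSG00000029819) at chr6:49822710-49829507 on the plus strand and *Tac1* (ENSMUSG00000061762) at chr6:7554879-7565834 on the plus strand. *Penk* (ENSMUSG00000045573) lies at chr4:4133531-4138819, *Nts* (ENSMUSG00000019890) at chr10:102481756-102490486 and *Cck* (ENSMUSG00000032532) at chr9:121489824-121495694, all on the minus strand. The sequence of *Grp* (ENSMUSG00000024517) was not used here. The cAMP response element TGACGTCA, first known from the somatostatin promoter, was looked for in the 250 bases before the RefSeq start (GRCm38.p6) of the 5 members with a promoter at hand, together with its 5-base part, TGACG on one strand and CGTCA on the other. The stretch around the 5-base part nearest the start is shown for the 4 genes that hold one, with matches in capitals, since these genes differ in the element that is textbook for *Sst*:
Sst: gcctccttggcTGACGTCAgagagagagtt
Tac1: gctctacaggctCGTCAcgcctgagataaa
Nts: attagggaagatCGTCActttccatcaagg
Cck: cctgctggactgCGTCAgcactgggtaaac
The *Sst* stretch (chr16:23890874-23890903, minus strand) holds the whole 8-base element, 48 to 41 bases before the start, and the full element contains both 5-base parts. *Tac1* (chr6:7555006-7555035, plus strand) holds a 5-base part 43 to 39 bases before its start and another at 197 to 193. *Cck* (chr9:121495724-121495753, minus strand) has one at 47 to 43, and *Nts* (chr10:102490567-102490596, minus strand) one at 166 to 162. By the GENCODE models the *Sst* and *Tac1* stretches fall within the annotated gene, upstream of the RefSeq start. *Npy*, the gene whose levels were most like those of *Sst*, holds neither in its 250 bases (chr6:49822460-49822709, plus strand), shown here for that contrast:
Npy: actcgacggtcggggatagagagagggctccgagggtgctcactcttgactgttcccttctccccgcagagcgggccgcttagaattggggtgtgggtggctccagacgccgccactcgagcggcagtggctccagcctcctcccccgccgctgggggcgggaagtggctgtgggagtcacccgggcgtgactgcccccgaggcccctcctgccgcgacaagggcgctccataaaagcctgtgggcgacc
Of 32851 mouse promoter windows of the same length, 1.55% hold the 8-base element and 17.8% a 5-base part. These matches are a description of letters only.

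In all, 19681 cells were kept, from 118 in KO2 to 6173 in WT4. Median UMIs per kept cell were 2478.5 in WT2, 3636 in WT3, 4359 in WT4, 2290 in KO4 and 2217 in KO5, so the KO libraries compared were the shallower ones. Clusters were built without the 7 genes and named from fixed markers of other genes, so a class such as interneuron-like cells is defined by *Gad1*, *Lhx6*, *Nxph1* and the like and not by its peptides. Striatal-like and hippocampal-like neurons were present in these libraries labelled neocortex. Libraries stood apart in 3 ways that touch every result. The share of cells whose cluster met no class by its markers (unnamed cells) was 7.61% to 11.1% in the compared WT libraries against 69.4% in KO4 and 85.2% in KO5, and it was 88.2% in the library labelled WT5. Haemoglobin RNA, the main RNA of red blood cells, was at 5.39 to 8.51 UMIs per 10000 in the compared WT libraries. It was at 32.0 in KO4, 71.9 in KO5 and 46.2 in the library labelled WT5. Those levels are of kept cells, after cells over 1% haemoglobin UMIs were left out. That limit took out 0.421% to 1.34% of otherwise kept cells in the compared WT libraries, 13.9% in KO4 and 40.4% in KO5. In the library labelled WT5 it took out 3.71%. *Tcf4* itself was at 12.2 to 12.6 in the compared WT libraries and at 9.29 and 7.59 in KO4 and KO5, but at 7.20 in the library labelled WT5, 4.65 in that labelled WT1 and 16.7 in that labelled KO1. A 3′ count lies outside exon 4 and does not read the allele itself, and RNA of the shorter isoform is counted too. Cell barcodes were shared in 26 of 36 pairs of libraries, by 46 at most.

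Most cells with a peptide UMI held just 1, and for some of the genes a small number of cells held a large part of the RNA. Over the 9 libraries, 80.8% of the cells with an *Sst* UMI and 68.9% of those with an *Npy* UMI had exactly 1. Cells with 5 or more UMIs of a gene, a limit set after the data were seen, are called bright cells here. For *Sst*, 98 bright cells of 19681 held 32.0% of its 5441 UMIs, with up to 116 in 1 cell. For *Npy*, 248 bright cells held 25.2% of 11869 UMIs, with up to 101. *Nts* had 70 bright cells holding 30.6% of 3623 UMIs, *Cck* 98 holding 20.7% of 3950, and *Tac1* 32 holding 19.9% of 1801. *Grp* and *Penk* were rare: 28 bright cells held 13.9% of 1200 *Grp* UMIs and 6 held 9.07% of 375 *Penk* UMIs. The bright share was not alike between libraries. In WT4, bright cells held 69.1% of *Sst* UMIs, 58.4% of *Npy*, 65.9% of *Nts*, 39.0% of *Tac1* and 32.4% of *Cck*. In KO4 the same shares were 14.5%, 9.60%, 23.0%, 5.06% and 7.0%. In KO5 they were 1.79%, 2.88%, 5.98%, 0 and 2.78%, and in the library labelled WT5 they were 1.68%, 3.67%, 1.02%, 0 and 2.07%. Thus in KO5 and the library labelled WT5 nearly all peptide RNA sat in cells with 1 to 4 UMIs of the gene. Cells were shallower in those libraries than in WT4, so a limit of 5 UMIs is harder to reach there, and the part of depth in these shares was not tested.

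**Figure D1:**
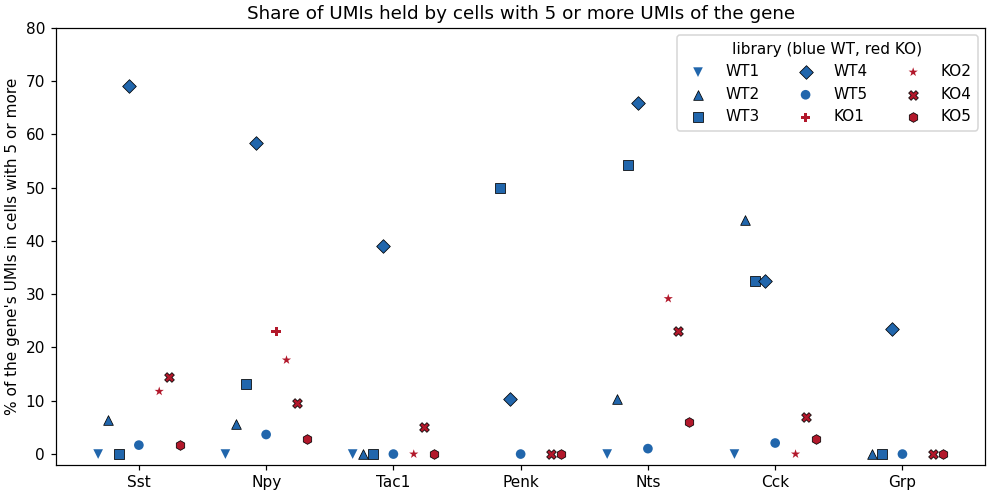
Share of each gene's UMIs (y axis, percent) held by cells with 5 or more UMIs of that gene, by library. WT4 has the highest share for *Sst* (69.1%), while KO5 and the library labelled WT5 lie under 6% for all genes shown with bright cells.

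*Sst*, the precursor of somatostatin, an inhibitory peptide of cortical interneurons, was highest in interneuron-like cells in each of the 4 compared libraries with at least 20 of them. Its level there was 0.986 per 10000 in WT2 (44 cells), 0.453 in WT3 (26 cells), 4.30 in WT4 (655 cells) and 2.12 in KO4 (44 cells). KO5 had 6 such cells, with 3 *Sst* UMIs. WT4 therefore carried most of the evidence: its interneuron-like cells were 10.6% of its cells and held 48.5% of its *Sst* UMIs, and 42 of its 73 bright *Sst* cells were among them. Only 19.5% of the WT4 interneuron-like cells had any *Sst* UMI, at a median of 3241 UMIs per cell, against 15.8% of its endothelial-like cells at a median of 5242. Thinned to 1800 UMIs per cell, the shares were 14.5% and 1.75%. In KO4 the thinned shares were 18.2% in interneuron-like and 11.8% in endothelial-like cells. The second class differed between libraries, with deep-layer-like cells at 2.49 in WT4 and endothelial-like cells at 1.44 in KO4.

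The bright *Sst* cells within the interneuron-like class sat in clusters named for high interneuron markers, so a high sum of those markers was given by the naming. The 43 of them summed to 26.6 UMIs per 10000 over the 17 interneuron markers, against 4.61 in the 16543 cells without an *Sst* UMI. The 10 bright *Sst* cells in the deep-layer-like class carried 9.91 of the interneuron list, 23.1 of the striatal list and 10.9 of the deep layer list. Cells without an *Sst* UMI had 11.9 of the striatal list and 7.11 of the deep layer list. The striatal list has 14 genes and the deep layer list 9, so the sums of the 2 lists are not compared with each other. Over all other named classes of at least 20 cells, which leaves out the unnamed cells, the median *Sst* level was 26.9% of the interneuron level in WT2, 15.6% in WT3, 6.25% in WT4 and 43.1% in KO4. As absolute levels, that median was 0.265, 0.0707, 0.269, 0.914 and, in KO5, 1.30 per 10000, so both KO libraries lay above the 3 WT libraries. How many of all genes did so was not counted. The library labelled WT5, at 0.810, lay near the KO libraries. Unnamed cells held 794 of the 1091 *Sst* UMIs of KO4 and 557 of the 670 of KO5, at 1.10 and 1.19 per 10000, against 0.693, 0.113 and 1.35 in the unnamed cells of WT2, WT3 and WT4.

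**Figure D2:**
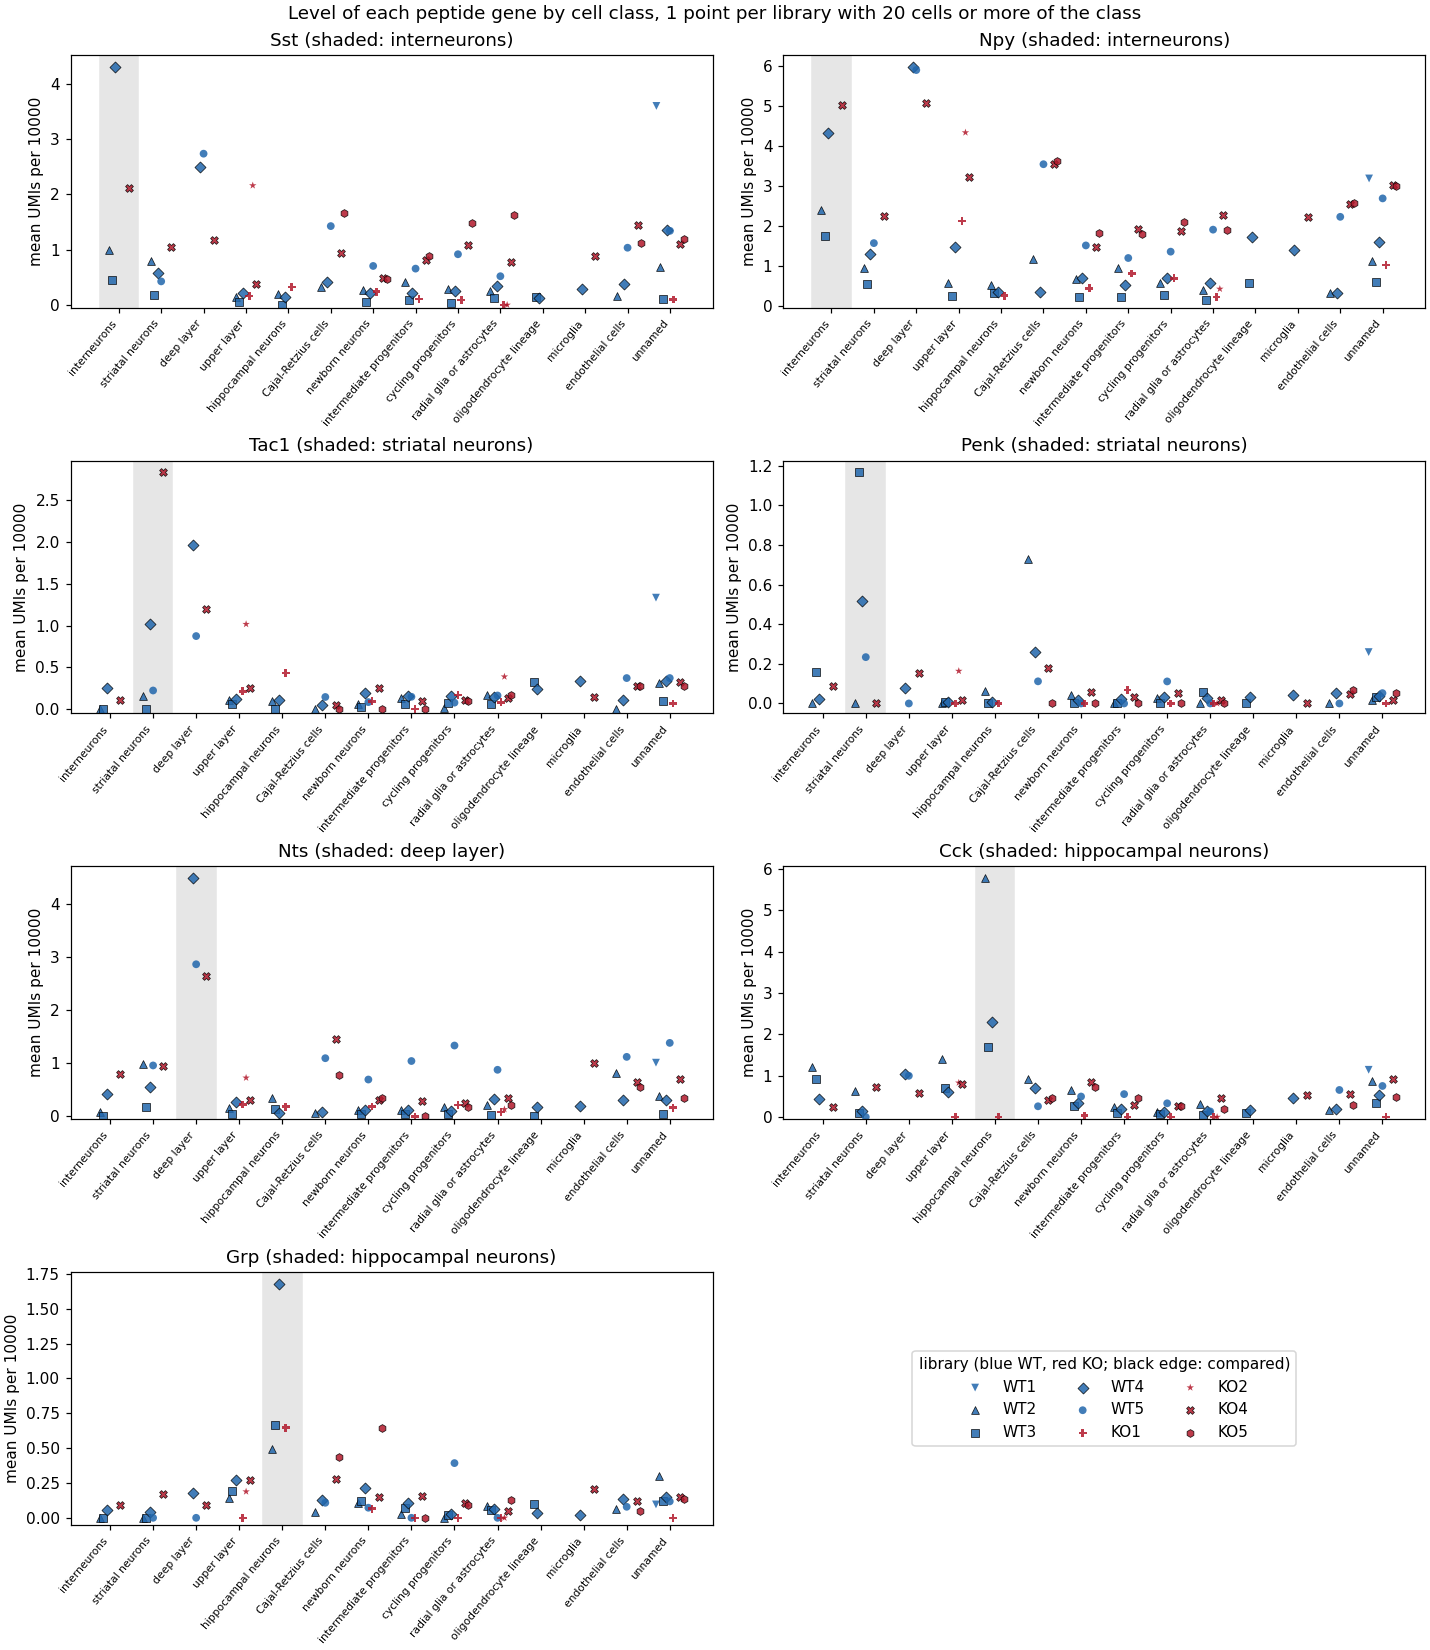
Mean UMIs per 10000 (y axis) of each of the 7 genes by cell class (x axis). There is 1 point for each library with at least 20 cells of the class, blue for WT and red for KO. A black edge marks the 5 compared libraries. Shading marks the source class, the class taken to make the peptide from textbook knowledge and earlier results of these data. *Sst* in WT4 reaches 4.30 in the interneuron-like class, and *Nts* 4.49 in the deep-layer-like class.

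*Npy*, the precursor of neuropeptide Y, which acts on inhibitory Y receptors and is known from a set of cortical interneurons, had more than 1 high class. Interneuron-like cells were at 2.38, 1.75, 4.32 and 5.02 per 10000 in WT2, WT3, WT4 and KO4. Deep-layer-like cells were higher still in WT4, at 5.98 (226 cells), and at 5.89 in the library labelled WT5 (29 cells) and 5.07 in KO4 (56 cells). In KO4 the deep layer and interneuron values differed by less than 2% and their order cannot be read. In WT2 and WT3 interneuron-like cells were first, but the deep-layer-like cells there numbered 8 and 18. Upper-layer-like cells were at 0.556, 0.230, 1.47, 3.21 and 2.45 per 10000, with 12 such cells in KO5. Both KO values there exceeded every WT value of the compared libraries. How many of all genes did so in this class was not counted.

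In WT4, *Npy* was bright in 173 cells, of which 56 were interneuron-like, 42 upper-layer-like and 41 deep-layer-like. The bright cells of the deep-layer-like and upper-layer-like classes were lower in interneuron-list RNA, though each class was itself named from its own list. The 46 bright cells of the deep-layer-like class over all libraries had 4.27 UMIs per 10000 of the interneuron list and 20.7 of the deep layer list. The 52 bright cells of the upper-layer-like class had 1.17 of the interneuron list and 12.0 of the upper layer list. The 59 bright interneuron-like cells had 29.2 of the interneuron list. The most *Npy* UMIs in 1 upper-layer-like cell was 80. In endothelial-like cells, which have no known *Npy*, levels were 0.328, 0.282, 0.321, 2.54 and 2.57 per 10000, and 2.22 in the library labelled WT5. Their thinned share with a UMI was 3.51% in WT4 and 32.0% in KO4, against 24.1% and 54.5% in interneuron-like cells of the same libraries.

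*Tac1*, the precursor of substance P and neurokinin A and a marker of direct-pathway striatal neurons, was at 0.163, 0, 1.02 and 2.83 per 10000 in striatal-like cells of WT2, WT3, WT4 and KO4. The counts behind these are small except in WT4. WT2 had 1 UMI in 32 cells, WT3 none in 40 cells, which allows a share of up to 7.50%, WT4 268 UMIs in 697 cells, and KO4 24 UMIs in 31 cells, 12 of which had at least 1. KO5 had only 2 striatal-like cells. Deep-layer-like cells were higher than striatal-like cells in WT4, at 1.97, and lower in KO4, at 1.20. The 11 bright *Tac1* cells in the deep-layer-like class carried 32.9 UMIs per 10000 of the striatal list and 14.1 of the deep layer list, and the 14 in the striatal-like class 52.5 and 14.6. Cells without a *Tac1* UMI had 11.5 of the striatal list and 7.13 of the deep layer list. By that measure the *Tac1*-bright cells of both clusters were rich in striatal-list RNA. Over all kept cells *Tac1* was low everywhere, at 0.110, 0.0547, 0.351, 0.311 and 0.254.

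*Penk*, the precursor of the enkephalins and a marker of indirect-pathway striatal neurons, was the rarest of the 7 genes, and in WT4 it had the largest share of its UMIs in its own class. There, 65.5% of its 223 UMIs lay in the striatal-like cells, which were 11.3% of the cells, and in WT3 15 of 22 UMIs lay in 40 striatal-like cells. Levels in that class were 0 in WT2, 1.17 in WT3, 0.516 in WT4 and 0.234 in the library labelled WT5. In WT2 and KO4 the highest named class was instead the Cajal-Retzius-like cells, at 0.727 (9 of the 14 *Penk* UMIs of WT2, in 38 cells) and 0.180 (3 UMIs in 70 cells). That class was second in WT4, at 0.261. No striatal-like UMI was seen in 32 cells of WT2 or 31 cells of KO4, which allows shares of up to 9.38% and 9.68%. The WT4 share of striatal-like cells with a *Penk* UMI was 11.9%, or 7.46% when thinned to 1800 UMIs, so a difference from KO4 was not detectable with 31 cells of a median of 2117 UMIs. In KO4 and KO5, 33 and 25 cells held a *Penk* UMI, each of them exactly 1. None of the 6 bright *Penk* cells was among the 32 bright *Tac1* cells.

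*Nts*, the precursor of neurotensin, was highest in deep-layer-like cells in the 3 libraries with at least 20 of them. Levels were 4.49 in WT4, 2.64 in KO4 and 2.87 in the library labelled WT5, and the 18 such cells of WT3 were at 3.94. In WT4 the class was 3.66% of cells and held 45.9% of *Nts* UMIs, and the next class, striatal-like cells, was at 0.556. The contrast between classes was the sharpest of the 7 genes in WT4, where the median of the other classes was 4.18% of the deep layer level. It was 18.9% in KO4 and 36.4% in the library labelled WT5. The 23 bright deep-layer-like cells carried 23.0 UMIs per 10000 of the deep layer list, which also named their class, and 2.27 of the interneuron list. Over all kept cells *Nts* ran from 0.0948 in WT3 to 0.687 in KO4 among the compared libraries, and to 1.36 in the library labelled WT5.

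*Cck*, the precursor of cholecystokinin, and *Grp*, that of gastrin-releasing peptide, which excites interneurons through its receptor, were both highest in hippocampal-like neurons of the 3 compared WT libraries. *Cck* was at 5.78 in WT2 (71 cells), 1.70 in WT3 (69 cells) and 2.29 in WT4 (252 cells). *Grp* was at 0.496, 0.667 and 1.68 in the same cells. WT2 was thus the highest of these libraries for *Cck* and the lowest for *Grp*. KO4 had 16 hippocampal-like cells, at 2.93 for *Cck* and 0.403 for *Grp*, the latter from 2 UMIs, and KO5 had 6. In the library labelled KO1, 20 hippocampal-like cells held no *Cck* UMI, which allows a share of up to 15%, while *Grp* was at 0.647 there.

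*Cck* was the more widespread of the pair. Of its 98 bright cells 36 were hippocampal-like and 23 upper-layer-like, and upper-layer-like cells were the second class in WT2, at 1.41. *Grp* was bright only in WT4, in 28 cells, of which 21 were hippocampal-like. These carried 41.8 UMIs per 10000 of the hippocampal list, against 4.15 in cells without *Grp*. That list also named their class, so a high sum was given by the naming. The 36 bright hippocampal-like *Cck* cells carried 19.3. Of the 28 *Grp*-bright cells of WT4, 57.1% had a *Cck* UMI, against 12.4% of the other cells, yet only 2 were bright for both.

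*Sst* and *Npy* were often found in the same cells. In WT4, 39 of 73 *Sst*-bright cells were also *Npy*-bright, which is 53.4% of the *Sst*-bright and 22.5% of the *Npy*-bright cells. Some *Npy* was seen in 78.1% of the *Sst*-bright cells and in 23.9% of the others. In KO4, 5 of 18 *Sst*-bright cells were *Npy*-bright. *Nts* did not follow this pattern, with 3 WT4 cells bright for *Sst* and *Nts* and 3 for *Npy* and *Nts*. The number of *Npy* UMIs per *Sst* UMI also depended on the class. In WT4 it was 0.964 in interneuron-like cells (1042 and 1081 UMIs), 2.96 in deep-layer-like cells and 6.88 in upper-layer-like cells. It was 0.667 in endothelial-like cells, from 8 and 12 UMIs.

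**Figure D3:**
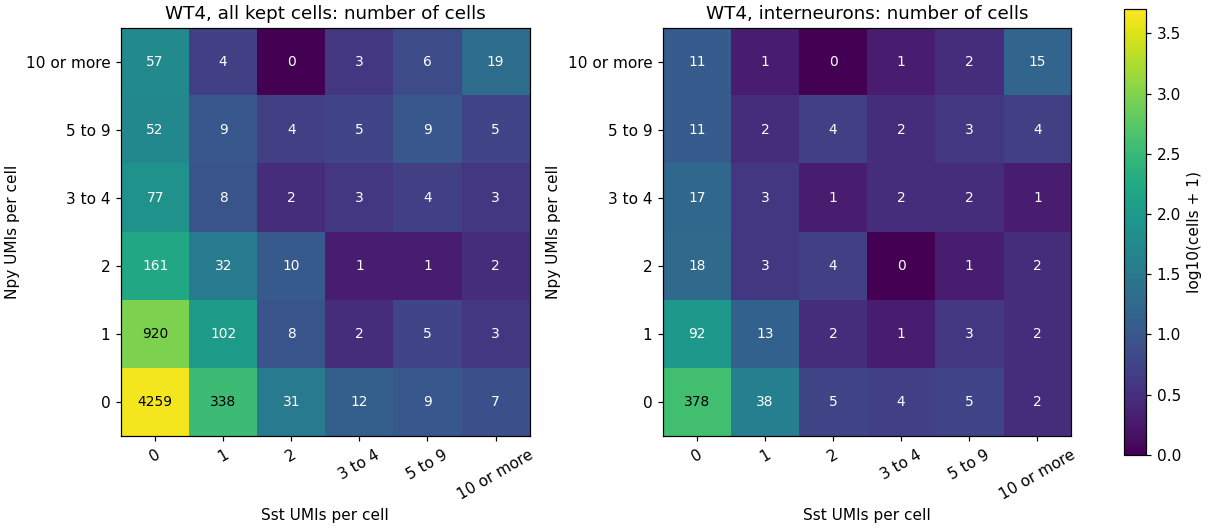
Number of WT4 cells by UMIs of *Sst* and UMIs of *Npy*, in bins, for all kept cells and for interneuron-like cells. Cells with 10 or more of both number 19 over all kept cells, and 57 cells with 10 or more *Npy* UMIs have no *Sst*.

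Non-neuronal cells, taken as the endothelial-like, microglia-like and oligodendrocyte-lineage-like cells together, are no known source of the 7 peptides as a set. After thinning to 1800 UMIs, the share of these cells with a UMI of any of the 7 genes was 23.1% in WT2 (95% Wilson interval 13.7% to 36.1%, 52 cells), 9.09% in WT3 (3.59% to 21.2%, 44 cells) and 27.7% in WT4 (22.2% to 33.9%, 224 cells). It was 53.0% in KO4 (46.8% to 59.1%, 249 cells) and 54.7% in KO5 (43.4% to 65.4%, 75 cells). The groups did not overlap: WT averaged 19.9% ± 9.68 (SD, n = 3) and KO 53.8% ± 1.17 (SD, n = 2), a difference of 33.9 points. The 2-sided exact permutation test gave p = 0.1, the smallest that 3 against 2 libraries can give, so it cannot pass 0.05. The library labelled WT5 was at 58.2% (49.7% to 66.2%, 134 cells), with the KO libraries and not with the other WT libraries, and that labelled KO1 was at 14.3% (14 cells). With it among the WT libraries the difference was 24.3 points (exact permutation p = 0.333), and with every library as labelled 11.1 points (p = 0.514). Intervals cover counting error only. The make-up of these cells differed between libraries: oligodendrocyte-lineage-like cells were 110 of 224 in WT4 and 23 of 44 in WT3, while endothelial-like cells were 178 of 249 in KO4 and 64 of 75 in KO5. In WT4 the oligodendrocyte-lineage-like cells held 82 of the 118 non-neuronal *Npy* UMIs. In endothelial-like cells alone, the thinned share with an *Npy* UMI was 10.3%, 0, 3.51%, 32.0% and 37.5%. That with an *Sst* UMI was 3.45%, 0, 1.75%, 11.8% and 18.8%. Both KO libraries thus lay above the WT libraries in this 1 class too. How many of all genes did so in endothelial-like cells was not counted. WT3 had 19 such cells, for which a share of 0 allows up to 15.8%, so the *Sst* share of KO4 is not told apart from that of WT3.

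Haemoglobin RNA in these same non-neuronal cells was 5.02, 7.87 and 5.53 UMIs per 10000 in WT2, WT3 and WT4, 29.5 in KO4, 68.9 in KO5 and 46.5 in the library labelled WT5. The libraries with high peptide shares were thus those with high haemoglobin, whatever their label. The summed markers of 3 neuronal classes were also higher in these cells of those libraries. The upper layer list summed to 2.91, 2.26, 2.97, 6.74 and 7.54 UMIs per 10000, and to 8.29 in the library labelled WT5. The deep layer list summed to 3.35, 1.83, 4.41, 6.09 and 6.85, and to 7.10 there, and the striatal list to 6.22, 6.77, 7.43, 8.45 and 9.86, and to 9.04 there. The interneuron list did not separate the libraries in this way, at 3.48, 4.86, 5.96, 3.76 and 3.81, and 4.52 there. Of its 17 genes, 10, 11, 17, 17 and 16 were seen in the compared libraries. The part of free RNA in the peptide shares was not tested. Taken alone in these cells, *Sst* was at 0.0924, 0.0746, 0.226, 1.32 and 1.59 per 10000, and *Npy* at 0.688, 0.418, 1.28, 2.47 and 2.95. For *Tac1* the values were 0, 0.169, 0.232, 0.230 and 0.238, and for *Grp* 0.0346, 0.0508, 0.0560, 0.137 and 0.0411. *Nts* was at 1.28, 0, 0.216, 0.705 and 0.471, where 1 cell of WT2 held 9 of its 18 UMIs, and *Cck* at 0.398, 0.0523, 0.242, 0.589 and 0.386. *Penk* was at 0, 0, 0.0406, 0.0330 and 0.0560, from 4 UMIs or fewer in each library. Thus *Sst* and *Npy* had both KO values above every compared WT value, and the other 5 genes did not. *Tac1* (0.230 in KO4 against 0.232 in WT4) and *Cck* (0.386 in KO5 against 0.398 in WT2) missed narrowly. How many of all genes had both KO values above in these cells was not counted, so this is not read as particular to *Sst* and *Npy*.

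**Figure D4:**
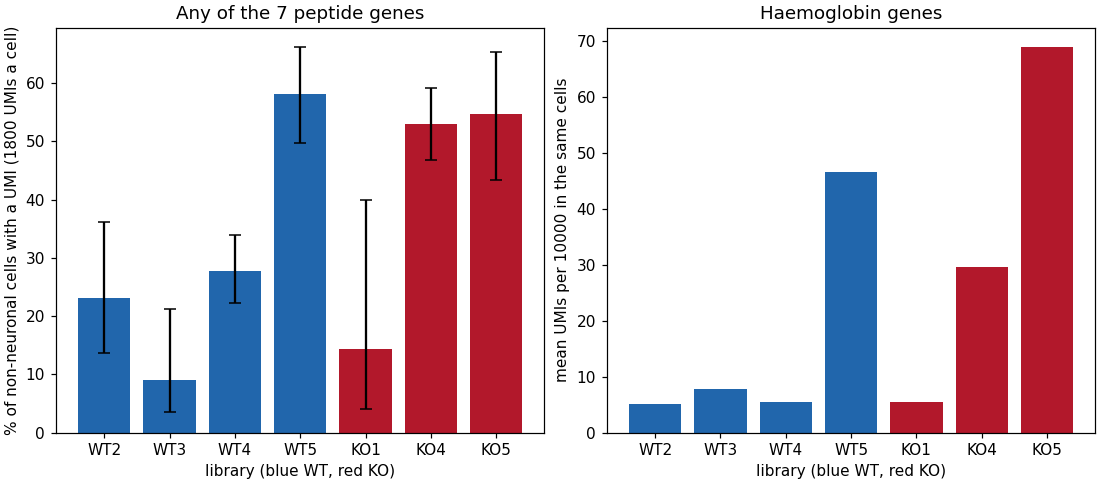
Share of non-neuronal cells with a UMI of any of the 7 genes after thinning (percent, bars with 95% Wilson intervals) and haemoglobin UMIs per 10000 in the same cells, by library. KO4 (53.0%), KO5 (54.7%) and the library labelled WT5 (58.2%) lie above WT2, WT3 and WT4, and the same libraries are high in haemoglobin.

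The WT to KO comparison asks whether loss of *Tcf4* changed the level of these genes. It was made with limma on log2(mean UMIs per 10000 + 1) per library, which understates the change of low genes, with Benjamini-Hochberg adjustment over all genes tested. Over all kept cells, *Sst* was at 0.330, 0.0740, 0.897, 1.04 and 1.22, and *Npy* at 0.768, 0.315, 1.54, 2.85 and 2.90. Both KO libraries lay above the 3 WT libraries for both genes, and how many of all genes did so was not counted. The log2 changes were 0.61 ± 0.206 (SE) for *Sst* (adjusted p = 0.164) and 1.10 ± 0.238 for *Npy* (adjusted p = 0.111). None of the 6 members tested was called, against 1.15% of all genes, and edgeR and DESeq2 also called none. An unadjusted limma p under 0.05 was seen for 2 of the 6, and for 2202 of all 8554 genes tested. *Nts* changed by 0.27 ± 0.126, *Tac1* by 0.14 ± 0.0955, *Cck* by 0.01 ± 0.175 and *Grp* by -0.01 ± 0.0339, and none of these 4 passed. *Penk* was under the filter on low values. Without WT4, *Npy* (adjusted p = 0.00790), *Sst* (0.0106) and *Tac1* were called in limma, in a fit that called 1394 of 8380 genes, and with every library as labelled the *Sst* change was -0.13.

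In upper-layer-like cells the limma changes were 1.18 ± 0.254 for *Npy* (adjusted p = 0.154) and 0.62 ± 0.187 for *Sst* (adjusted p = 0.331). *Cck* changed by -0.48 ± 0.244 (adjusted p = 0.371). None of the 6 members tested was called there, against 0.171% of all genes. An unadjusted limma p under 0.05 was seen for 2 of the 6, and for 1203 of all 8165 genes tested. *Npy* passed in limma when any 1 of the 3 WT libraries was left out (adjusted p from 8.23e-06 to 0.0451), after thinning (0.0469) and with cells assigned one by one (0.0336). It did not pass without KO4 (0.0951) or KO5 (0.279), with edgeR (0.947) or DESeq2 (0.682), with WT5 added (0.586) or with all libraries as labelled (0.887). The KO5 value came from 12 cells, and from 92 with cells assigned one by one. *Sst* passed in limma without the haemoglobin limit (adjusted p = 0.000783), at Leiden resolution 0.5 (0.0328) and with cells assigned one by one (0.000981). *Npy* did not pass in the first 2 of these (0.302 and 0.166). *Sst* did not pass with any 1 WT library left out (0.109 to 0.622), with edgeR TMM factors (0.476) or with WT5 added (0.941).

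**Figure D5:**
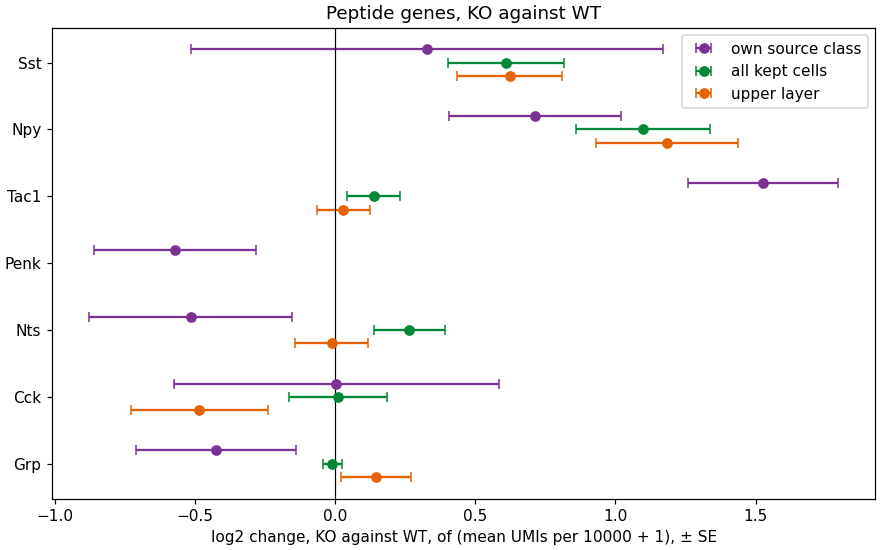
Change from WT to KO (log2 of mean UMIs per 10000 + 1, points with SE) of the 7 genes in the source class, over all kept cells and in upper-layer-like cells. *Npy* is at 1.10 over all kept cells and 1.18 in upper-layer-like cells, and *Tac1* at 1.53 in striatal-like cells.

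Within the source classes only KO4 had at least 10 cells on the KO side, so its 1 library was assumed to vary like the WT libraries. In interneuron-like cells, where 0.0355% of all genes were called, neither *Sst* (0.33 ± 0.843, adjusted p = 0.927) nor *Npy* (0.71 ± 0.306, adjusted p = 0.617) was called by limma. In striatal-like cells, where 0.534% of all genes were called, *Tac1* was higher in KO4 by 1.53 ± 0.267 (adjusted p = 0.000233) and *Penk* was at -0.57 ± 0.289 (adjusted p = 0.431). The *Tac1* call rested on 24 UMIs in 31 KO4 cells and was lost in several alternatives. The change was larger but not called on summed UMIs with edgeR (2.21, adjusted p = 0.867) or DESeq2 (3.13, 0.999) and with a pseudocount of 0.25 (2.60, 0.169). It was smaller and not called with cells assigned one by one (0.36, 0.610) and at Leiden resolution 2 (0.16, 0.936), both fits with KO4 and KO5 on the KO side. In deep-layer-like cells, with WT3 and WT4 against KO4 and 0.297% of all genes called, *Nts* was at -0.51 ± 0.361 (adjusted p = 0.956). In hippocampal-like cells *Cck* was at 0.00 ± 0.580 and *Grp* at -0.42 ± 0.286. No p is read from that fit, whose lone KO library of 16 cells gave 17.6% of all genes as called. Of the members whose p is read here, only *Tac1* was called in its source class.

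Other genes of peptide signalling were read from 3 lists. Of 16 other precursors, none reached the filter over all kept cells, and the highest were *Pomc* at 0.0761, *Tac2* at 0.0539 and *Pnoc* at 0.0430 per 10000, as means over the 5 compared libraries. Of 19 receptors, 3 were tested over all kept cells and none was called. They were *Sstr2*, a somatostatin receptor, at 0.584, *Sort1*, a sorting receptor that binds neurotensin, at 0.196, and *Ntsr1*, a neurotensin receptor, at 0.0894. Of 11 granins and processing enzymes, 9 were tested over all kept cells, 1 was called higher and none lower, with a median change of 0.05 against -0.05 over all genes tested.

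The gene called was *Pam*, the enzyme that amidates the C-terminus of peptides such as NPY and CCK. It was at 0.700, 1.96, 0.920, 4.18 and 4.25 UMIs per 10000, so both KO libraries lay above every compared WT library, with a limma change of 1.29 ± 0.214 (adjusted p = 0.0403). In upper-layer-like cells the *Pam* change was 1.31 ± 0.208 (adjusted p = 0.0413). Both calls held with edgeR and DESeq2. Neither held in limma with a pseudocount of 0.25 (adjusted p = 0.0625 over all kept cells and 0.0755 in upper-layer-like cells) or with no filter on low values (0.183 and 0.249). Neither call held with WT5 added as labelled (adjusted p = 0.678 over all kept cells and 0.571 in upper-layer-like cells) or with every library as labelled (0.957 and 0.887). With libraries blocked by replicate number, neither held in limma (adjusted p = 0.944 and 0.860). Over all kept cells the call was also lost without WT2 (0.142) and without the haemoglobin limit (0.0514). It was lost there with KO4 or KO5 left out too (changes of 1.30 and 1.28). In upper-layer-like cells it was lost with KO5 left out (1.18). In the fits with KO4 alone on the KO side, *Pam* was called in striatal-like cells (2.04, adjusted p = 1.07e-09) and deep-layer-like cells (1.80, adjusted p = 5.83e-05) and not in interneuron-like cells (1.32, adjusted p = 0.0607). *Pcsk1n*, an inhibitor of a prohormone convertase, and *Cpe*, the carboxypeptidase that trims the cut peptides, averaged 2.45 and 2.35 per 10000 and were not called.

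Across 65 pairs of a class and a library with at least 20 cells, the gene most like *Sst* among 8452 was *Npy* (Pearson r = 0.852), followed by *Cadm4* (0.685). The genes most like *Nts* were *Pfkp* (0.776), *Caly* (0.760) and *Nr4a2* (0.745), the last a transcription factor of the subplate. The gene most like *Tac1* was *Pde10a* (0.666), a phosphodiesterase of striatal neurons, and for *Penk* it was *Zcchc12* (0.655), with *Isl1* (0.602) at rank 3. *Grp* was most like *Nr4a3* (0.715) and *Cck* most like *Kcnk1* (0.667). The points share libraries and depth, so these values are a description.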

How the data were processed

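Single-cell suspensions of E18.5 mouse neocortex were made into Chromium 3′ v2 libraries, 1 per embryo, and sequenced on an Illumina HiSeq. Submitters' processing notes name Cell Ranger 2.1.0, Seurat 2.3.4, R 3.6.0 and the mm10 (GRCm38) genome. Raw UMI counts were deposited for 4 libraries (both groups' replicates 4 and 5). The other 5 were deposited as the natural log of 1 + UMIs per 10000, from which whole UMIs were recovered for 100% of values within 1e-06, so all libraries were read on 1 scale.

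Cells with 1000 to 5000 genes, 1800 to 10000 UMIs, under 6% mitochondrial and at most 1% haemoglobin UMIs were kept. They were thinned to 1700 UMIs and clustered without the 7 genes in scanpy 1.11.5 (2000 variable genes scaled within library, 30 components, 20 neighbours, Leiden resolution 1, igraph 0.11.9). A cluster was named when at least 3 of a class's markers were 1.5-fold higher than elsewhere, their mean log2 ratio was at least 0.5 and 1 was among its top 10 genes. This naming rule was refined after the data were seen, and other names may be given by other choices. Scrublet marked 0.178% of cells, too few for the caller to have worked, so the highest 5% of scores were left out as an alternative.

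Shares of cells were compared after thinning each cell to 1800 UMIs. Groups were tested with limma 3.58.1 (trend, robust) in R 4.3.3 on log2(mean UMIs per 10000 + 1) per library, over genes with at least 0.1 in 2 libraries, and called at an adjusted p below 0.05, in classes with at least 10 cells of a library. A share per library was tested by exact permutation in scipy 1.17.1. Alternatives used edgeR 4.0.16 and DESeq2 1.42.0 on summed UMIs. Scripts were tested on simulated data. Libraries came from separate embryos. All 7 members, the 3 gene lists and the source classes were chosen with earlier results of these data known. Named genes were the 7 members, every listed gene called, the 3 highest of each list and the 3 most alike in pattern to each member, of which the text gives the first or more.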

Additional observations from a re-analysis of the deposited data

Results flagged for a closer look

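In 3 of 15 comparisons of single libraries, 1 library lay far from the rest of its group, and chance gives about 1 in 20. The comparisons took each gene over all kept cells in each group, and the non-neuronal share in the WT libraries. All 3 flagged were of genes over all kept cells. *Penk* was at 0.301 UMIs per 10000 in the library labelled WT1, from 10 UMIs in 126 cells, and the next WT library was at 0.0815. *Grp* was highest in WT4 at 0.203, with the next WT library at 0.129, and all 28 of its bright cells were in WT4. *Grp* was lowest in the library labelled KO1, at 0.0518, from 5 UMIs in 331 cells, and the next KO library was at 0.141.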

How the results depend on the processing

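In their source classes 1 member (*Tac1*) was called, and 0 were called with edgeR under TMM or RLE factors, DESeq2, no filter on low values, a pseudocount of 0.25, no haemoglobin limit (4 members could be tested), Leiden resolution 2 (5 members), or cells assigned one by one. Leiden resolution 0.5 also gave 0, but it formed no striatal-like class, so *Tac1* could not be tested and only 2 members were. Leaving out any 1 WT library kept *Tac1* called. Without WT2, *Penk* was called too (-0.86), in the striatal-like fit where the most genes of all were called. KO4 could not be left out. Without centring within libraries, *Npy* in interneuron-like cells was called (1.16, with 13 KO4 cells) and *Tac1* in striatal-like cells was not (0.82). Of the interneuron-like fits, the one without centring called the most genes of all. Over all kept cells 0 members were called, and leaving out 1 library gave 0 to 3, with 3 without WT4, where 1394 of 8380 genes were called. In upper-layer-like cells 0 were called, 1 after thinning, without the haemoglobin limit or at Leiden resolution 0.5, and 4 with cells assigned one by one. In that order, these 4 fits called 14 of 8289, 119 of 8230, 65 of 8193 and 127 of 8360 genes. Leaving out 1 library gave 0 to 4 there, with 4 without KO4, where 12 cells of KO5 stood for the KO group and 5107 of 7878 genes were called. Otherwise the cause was not tested. The source class stood first in WT4 for 5 of 7 genes, also after thinning, and for 4 with cells assigned one by one. The source classes were chosen with earlier results of these data known, so this count was partly fixed in advance.

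Of 210 alternatives for single changes, 155 kept direction and call, 26 lost and 13 gained a call, and 16 changed direction. *Sst* in interneuron-like cells went to -0.0861 (TMM), -0.0374 (RLE), -0.0898 (Leiden resolution 2) and -0.16 (one by one), and leaving out 1 library gave -0.0582 (without WT3) to 0.876 (without WT4). *Cck* in hippocampal-like cells went from 0.00 to -0.27 (TMM), -0.23 (RLE), -0.25 (DESeq2), -0.68 (one by one) and -0.98 (all libraries as labelled), and leaving out 1 library gave -0.26 (without WT3) to 0.40 (without WT2), with -0.12 without WT4. With all libraries as labelled *Nts* in deep-layer-like cells went to 0.0518 and *Sst* over all kept cells to -0.13. The cause was not tested. A pseudocount of 0.25 moved the median of all genes to -0.11 over all kept cells and -0.17 in upper-layer-like cells.

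Replicate numbers could pair WT and KO libraries, but same-numbered libraries deviated together with correlations of -0.052, 0.278, 0.289 and 0.528 (numbers 1, 2, 4 and 5), WT1 was closer to KO2, and the labels give the number no meaning, so the numbers were not taken to pair. With the replicate block, 0 members were called over all kept cells and in upper-layer-like cells, *Sst* over all kept cells was at -0.34, and -0.34 without the block on the same libraries, an alternative added after the data were seen. The non-neuronal share differed by 10.9 points over the pairs WT4 with KO4 and WT5 with KO5.

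Calls over all genes ran from 0 to 1394 over all kept cells (98 as reported), 0 to 5107 in upper-layer-like (14), 0 to 301 in interneuron-like (3), 0 to 180 in striatal-like (45), 0 to 85 in deep-layer-like (24) and 0 to 2745 in hippocampal-like cells (1446). The non-neuronal difference stayed between 11.1 and 39.2 points in the other alternatives, KO above WT. Under 60 cells of a class in KO4 and under 10 in KO5 limit every source-class comparison.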

Other observations

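The 3 smallest libraries entered only the fits with all libraries as labelled or with the replicate block. In the library labelled WT1, with 126 cells, *Sst* was at 3.11 UMIs per 10000 and *Npy* at 2.79, and 41.3% and 39.7% of cells had a UMI after thinning. No cell there held more than 4 *Sst* or 3 *Npy* UMIs. In the library labelled KO2, 31 upper-layer-like cells were 26.3% of the 118 cells and held 82.4% of the *Npy* UMIs, and 87.1% of them had an *Npy* UMI, at a median of 6199 UMIs per cell. In the library labelled KO1, with 331 cells, *Cck* had 2 UMIs in all and *Penk* 1.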
